A study of Mus musculus with 4 samples.

Results

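A set of 9 genes that mark the outer, progenitor-like fibroblasts of vessel walls were followed through popliteal lymphatic vessels and superficial saphenous veins of mice with and without arthritis. The genes are Pi16, Dpp4, Cd34, Ly6a, Ly6c1, Thy1, Anxa3, Cd55 and Dpt, 9 of the 30406 genes listed for all 4 libraries. They were chosen by name, with earlier results of the same libraries known: their level in the stromal cells, and the opposite direction of Thy1 in the 2 stromal types, guided the choice, so every value below is a description and no test was made. Each library was made from droplet-captured cells of 3 pooled mice on a C57BL/6J background, and each value is a count of UMIs (unique molecular identifiers, which tag every captured mRNA molecule once). The tdT1 and tdT2 libraries, replicates of 1 group, held tdTomato-positive, viable cells of male and female Cspg4-Cre;Ai9-tdTomato mice older than 8 months, in which the Cspg4 promoter drives Cre and the reporter marks cells with any past Cre activity. The WT library came from wild-type males, 9 months by the labels. The TNF-Tg library came from males, also 9 months, of a line that carries a human TNF transgene and develops chronic erosive arthritis. Both held unlabelled viable cells sorted on high forward scatter, high side scatter or both. Since WT and TNF-Tg are 1 library each, condition, mice and preparation cannot be told apart in any ratio between them.

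Adventitial fibroblasts form the outermost coat of vessels, and a subset with PI16, DPP4, CD34 and the Ly6 surface proteins is known from many mouse tissues as a reservoir from which more specialised fibroblasts arise. Most of the 9 products sit on the cell surface, which is why they serve in cell sorting. They do different things. PI16 is a peptidase inhibitor family member, DPP4 (CD26) cleaves dipeptides from chemokines and hormones, CD34 is a sialomucin of progenitor and endothelial cells, LY6A (Sca-1), LY6C1 and THY1 (CD90) are held in the membrane by a glycolipid anchor, CD55 breaks up complement convertases, ANXA3 binds phospholipids in the presence of calcium, and DPT (dermatopontin) is a secreted matrix protein that binds decorin and collagen.

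The cells were gated with panels that hold none of the 9 genes. A cell was called stromal when at least 80% of its stromal and leukocyte panel UMIs came from the stromal panel (Col1a1, Col1a2, Dcn, Pdgfra, Prrx1, Fstl1) and at least 4 of those 6 genes were detected. Stromal cells were divided at 0 on an axis, the log2 ratio of a 10-gene panel led by Myoc, Fndc1 and Adamts5 over a 10-gene panel led by Cxcl14, Mgp and Gdf10, each per 10000 UMIs plus 1. The Myoc-type cells stand for the class the study names lymphatic muscle cells, and the Cxcl14-type cells for the class it names vascular smooth muscle cells. This match was not checked cell by cell, and no step set apart the study's small separate fibroblast cluster. The tdT1, tdT2, WT and TNF-Tg libraries gave 752, 104, 1501 and 559 Myoc-type cells and 242, 136, 714 and 545 Cxcl14-type cells. Contractile genes were mostly low in these cells, and the study itself reports limited expression of Acta2, Myh11 and Tagln. It rests the muscle names on other evidence, such as Cald1, Tpm1 and Pdgfrb expression and reporter mice. It also states that myofibroblasts from nearby tissue cannot be fully excluded. Summed over Acta2, Myh11, Tagln, Cnn1, Des, Rgs5, Notch3 and Mcam, the level in CPM (UMIs per 1000000 UMIs of the cells summed) lay between 20.5 and 40.6 in Myoc-type cells, mostly Des (desmin) except in tdT2, where Notch3 was higher. In Cxcl14-type cells the sum was 4.51 in WT, 12.4 in TNF-Tg and 13.3 in tdT2, against 233 in tdT1, where Acta2 stood at 118. The stromal panel summed to between 21014 and 40367 CPM, but the gate required that panel, so a high sum was set in advance. The gate also left out any cell with fewer than 4 of the 6 stromal panel genes. The cells are called by their leading genes here because the match to the study's classes was not checked cell by cell.

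The axis is a continuum, and the classes are ranges on it. Within 1 log2 unit of the division lay 81, 22, 130 and 85 of the Myoc-type cells and 62, 21, 108 and 84 of the Cxcl14-type cells of tdT1, tdT2, WT and TNF-Tg. Clusters made without the 9 genes put 83.7% to 94.4% of the gated stromal cells that also fell in a stromal cluster in the same class. The libraries differ in quality as well. The tdT1 library, sorted through a narrower nozzle and sequenced on another instrument, had 210 of 752 Myoc-type cells above 10% mitochondrial UMIs, against 0 of 104 (tdT2), 7 of 1501 (WT) and 3 of 559 (TNF-Tg). Between 0 and 5 cell barcodes were shared by any pair of libraries.

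For 6 of the 9 genes the RefSeq promoter table (build GRCm38.p6) has an entry, and these are Pi16, Dpp4, Cd34, Ly6c1, Cd55 and Dpt, while Ly6a, Thy1 and Anxa3 were not matched. The 250 bases before the start of Pi16, Dpp4 and Cd55 are shown because these genes were the ones, with Anxa3, that separated the stromal types most, and those of Dpt because it had a wide TNF-Tg difference. Each is written on the gene's own strand, with matches to a TATA box (TATAAA) or a GC box (GGGCGG), sought on both strands, in capitals, so that a GC box on the other strand reads CCGCCC. The RefSeq starts of Pi16 and Dpt lie inside the gene spans that GENCODE gives. The Dpt window, which ends at 164796662, runs past the GENCODE start at 164796644.
Pi16, chr17:29318632-29318881, plus strand: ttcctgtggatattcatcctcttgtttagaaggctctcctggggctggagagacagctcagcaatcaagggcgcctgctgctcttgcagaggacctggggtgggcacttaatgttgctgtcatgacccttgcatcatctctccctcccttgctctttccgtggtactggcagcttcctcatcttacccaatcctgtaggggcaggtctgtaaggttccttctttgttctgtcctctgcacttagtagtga
Dpp4, chr2:62412232-62412481, minus strand: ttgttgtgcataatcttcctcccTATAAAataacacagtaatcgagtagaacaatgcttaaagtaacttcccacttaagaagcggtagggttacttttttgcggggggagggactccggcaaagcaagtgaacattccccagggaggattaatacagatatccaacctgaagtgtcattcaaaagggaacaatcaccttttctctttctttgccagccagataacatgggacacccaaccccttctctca
Cd55, chr1:130462745-130462994, minus strand: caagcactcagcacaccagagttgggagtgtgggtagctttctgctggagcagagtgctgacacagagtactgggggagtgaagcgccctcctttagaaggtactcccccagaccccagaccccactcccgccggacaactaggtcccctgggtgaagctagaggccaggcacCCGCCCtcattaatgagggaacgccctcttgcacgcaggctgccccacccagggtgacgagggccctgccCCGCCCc
Dpt, chr1:164796413-164796662, plus strand: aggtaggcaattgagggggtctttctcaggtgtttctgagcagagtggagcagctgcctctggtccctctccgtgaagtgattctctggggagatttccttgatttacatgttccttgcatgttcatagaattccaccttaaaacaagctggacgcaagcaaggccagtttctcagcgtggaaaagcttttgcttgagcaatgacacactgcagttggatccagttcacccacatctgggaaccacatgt

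The Cd55 window held 2 GC boxes and had 64.0% G and C, against 52.4% for Pi16, 43.6% for Dpp4 and 48.8% for Dpt. The single TATA box of Dpp4 began 227 bases before the start. Of 32851 promoter windows of the same length, 32.7% held a GC box and 12.4% a TATA box. An NF-kB motif was found in 0.98% of the windows and an AP-1 motif (TGANTCA) in 6.75%, and no window of the 6 matched genes held either. These are matches of letters in short windows and nothing more. The genes lie apart in the genome except for Ly6a (chromosome 15, 74994877 to 74998031) and Ly6c1 (chromosome 15, 75044018 to 75048830), which stand 46.0 kb apart on the same strand within the Ly6 gene cluster. Thy1 spans chromosome 9, 44043384 to 44048579, on the plus strand. Close copies could share reads. Of 441 windows of 60 bases in the last 500 bases of the Ly6c1 transcript, 65 (14.7%) also occur in Ly6c2, so the Ly6c1 counts carry that uncertainty. Ly6c2 itself stood at 2.44 CPM or less in both stromal types of every library. Antisense genes overlap Pi16, Dpp4, Cd34, Cd55 and Dpt in the annotation (GENCODE M21), and a further gene model on the same strand overlaps Anxa3.

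The first question was where in the vessel-wall preparations the 9 genes were found. In the stromal cells each of them was measured in every library. Among gated types with at least 20 cells, Pi16, Dpp4, Cd34, Anxa3 and Dpt had their highest level in Myoc-type cells of all 4 libraries, and Cd55 and Ly6c1 in those of 3. Outside the stroma the levels differed by gene and cell type. Macrophages of the WT library, the largest leukocyte gate with 1837 cells, stood at 10.2 CPM for Pi16, 3.68 for Dpp4, 4.02 for Cd34, 9.14 for Ly6c1, 9.82 for Dpt and 0.508 for Thy1, low values to which free RNA may contribute. Higher levels were found there for Ly6a (312 CPM, and 47.7 in TNF-Tg macrophages), Cd55 (130 and 180) and Anxa3 (60.1 and 87.0).

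Other types carried some of the 9 genes. The dendritic gate held Dpp4 at 110 CPM in tdT1, 116 in WT and 73.1 in TNF-Tg, between the levels of the stromal types. Pi16 reached 202 CPM in neutrophils of WT and 193 in those of TNF-Tg, below the Cxcl14-type cells of the same libraries (445 and 234). Among types with at least 20 cells, Thy1, the classical T cell antigen of the mouse, was highest in the T cells of WT (384 CPM) and of TNF-Tg (246 CPM). These T cells also held Ly6a at 201 and 92.7 CPM. With the same limit of 20 cells, Cd55 was highest in the mast cell or basophil gate of WT, with 91 UMIs in 84 shallow cells. Ly6a stood at 893 CPM (139 UMIs) in that gate. Endothelial cells were few, with 36 in tdT1 and 7 or fewer in each other library. In tdT1 they held Ly6a at 830, Cd34 at 280, Anxa3 at 221, Ly6c1 at 179 and Cd55 at 152 CPM, and no Thy1 or Dpp4 UMI. The 2 endothelial cells of WT held 12 Thy1 and 23 Cd55 UMIs, and the 6 of TNF-Tg held 0 and 44. The count of 0 for Thy1 in endothelial cells of tdT1 has an exact Poisson upper limit of 8.15 CPM.

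**Figure D1:**
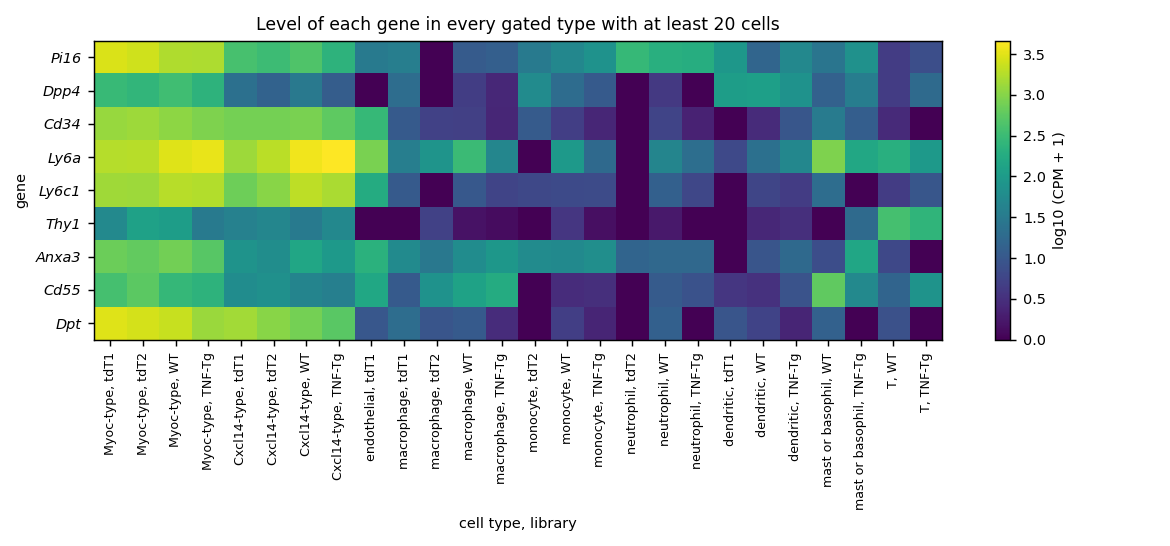
Level of each of the 9 genes (rows) in every gated cell type with at least 20 cells, by library (columns), as log10 of CPM plus 1. Both stromal types carry the signal of Pi16, Cd34, Ly6c1 and Dpt, and Thy1 is brightest in T cells (384 CPM in WT).

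Of the 9 genes, 5 were at least 1.5-fold higher in Myoc-type than in Cxcl14-type cells in all 4 libraries, Pi16, Dpp4, Anxa3, Cd55 and Dpt. Over all genes with at least 20 UMIs in each library, 4.24% did the same (288 of 6789). None of the 9 was lower by that fold in all 4, where 183 of the 6789 genes were. Because the classes and this choice of genes rest on the same cells, nothing is read from the difference between these shares. Cd34 was higher in Myoc-type cells in every library by less than 1.5-fold in WT, while Ly6a and Ly6c1 had no common direction and Thy1 changed direction between libraries.

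Pi16 showed the clear separation in full. Its levels in Myoc-type cells were 2879 CPM (tdT1), 2509 (tdT2), 1678 (WT) and 1641 (TNF-Tg), and in Cxcl14-type cells 394, 318, 445 and 234. The summed level was higher in Myoc-type cells in every library, although single cells overlap, since 59.8% of WT Cxcl14-type cells held at least 1 Pi16 UMI. The log2 ratio of Myoc-type over Cxcl14-type was 2.92 ± 0.08 (SD, n = 2) over the tdT libraries, 1.91 in WT (95% counting interval 1.87 to 1.96) and 2.81 in TNF-Tg (2.73 to 2.89). These intervals cover counting error only, not the spread between mice.

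Dpp4 was the gene with the greatest ratio. Its level was 296, 257, 343 and 229 CPM in Myoc-type cells of tdT1, tdT2, WT and TNF-Tg and 21.2, 13.3, 28.8 and 10.9 CPM in Cxcl14-type cells. The log2 ratios were 3.80, 4.27, 3.57 and 4.39. In tdT2 the lower value rests on 10 UMIs.

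Anxa3 and Cd55, with roles in membrane binding and complement control, followed. Anxa3 measured 691, 612, 769 and 515 CPM in Myoc-type cells of tdT1, tdT2, WT and TNF-Tg, and 74.7, 62.3, 144 and 91.8 CPM in Cxcl14-type cells. The tdT mean of its log2 ratio was 3.25 ± 0.06 (SD, n = 2), with 2.41 in WT and 2.49 in TNF-Tg. Cd55 measured 386, 552, 277 and 234 CPM against 60.4, 69.0, 43.6 and 36.6 CPM. Its log2 ratio was almost the same in every library, 2.67, 3.00, 2.66 and 2.68.

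Dpt, the matrix protein, and Cd34 were high in both types. Dpt stood at 3082, 2697, 2278 and 1278 CPM in Myoc-type cells and 1441, 1022, 789 and 534 CPM in Cxcl14-type cells of tdT1, tdT2, WT and TNF-Tg. Both types ranked the libraries in the same order. Cd34 measured 1257, 1315, 1102 and 890 CPM in Myoc-type cells and 777, 798, 839 and 571 CPM in Cxcl14-type cells, with log2 ratios of 0.70, 0.72, 0.39 and 0.64.

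The pair of Ly6 genes behaved unlike the others. Ly6a was 1782, 1854, 3030 and 3499 CPM in Myoc-type cells and 1352, 1892, 3867 and 4599 CPM in Cxcl14-type cells of tdT1, tdT2, WT and TNF-Tg. It leaned to the Myoc-type side in tdT1 (log2 ratio 0.40), to neither in tdT2 (-0.03, interval -0.14 to 0.09), and to the Cxcl14-type side in WT (-0.35) and TNF-Tg (-0.39). The 2 libraries of unlabelled cells stood above both tdT libraries in both types, by a wider margin than the one between them. Ly6c1 measured 1379, 1327, 1855 and 1722 CPM in Myoc-type cells and 708, 1029, 1992 and 1590 CPM in Cxcl14-type cells, again with the tdT libraries below.

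**Figure D2:**
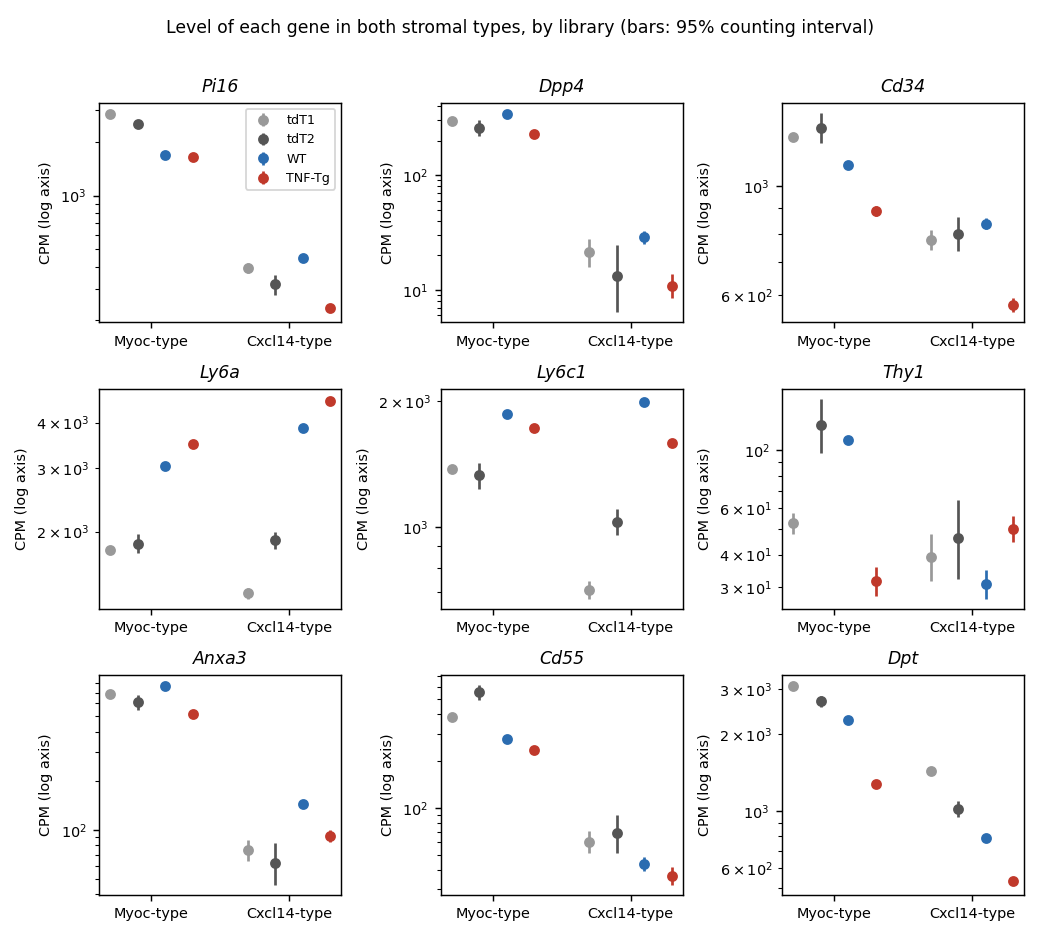
CPM (log axis) of each gene in Myoc-type and Cxcl14-type cells; points are the 4 libraries, bars the 95% counting interval. Pi16, Dpp4, Anxa3, Cd55 and Dpt are higher in Myoc-type cells in every library, and Thy1 stands at 31.7 CPM in TNF-Tg Myoc-type cells, below the other 3 libraries.

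The second comparison was TNF-Tg against WT within each type. Most of the 9 genes were lower in TNF-Tg, with the widest differences for Thy1 and Dpt in Myoc-type cells and for Dpp4 and Pi16 in Cxcl14-type cells, and Ly6a alone was higher in both types. In Myoc-type cells 8 of the 9 log2 ratios were below 0, with a median of -0.31 against -0.04 over all 12283 genes with at least 20 UMIs in the pair of libraries. In Cxcl14-type cells 7 of 9 were below 0, with a median of -0.55 against -0.20 over 11392 genes. Both all-gene medians are below 0 too, so most of all genes lay on that side, though their exact share is not given here. Pi16, at -0.03 in Myoc-type cells, changed sign with the weighting of cells. Since the contrast was known when the genes were chosen, nothing is read from these counts.

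With 1.5-fold as the mark, 2 of the 9 were lower in Myoc-type cells (Thy1 and Dpt) against 16.0% of all genes, and 0 were higher against 11.9%. In Cxcl14-type cells 3 were lower (Dpp4, Pi16 and Anxa3) against 27.8% of all genes, and 1 was higher (Thy1) against 11.6%. In Myoc-type cells Dpt lay past the mark at 1.78-fold, while Dpp4 at 1.495-fold and Anxa3 at 1.49-fold were just outside it. In Cxcl14-type cells Anxa3 stood just inside at 1.57-fold and Dpt and Cd34 just outside at 1.48-fold and 1.47-fold. Leaving out the cells that Scrublet marked as doublets moved Dpp4 and Anxa3 past the mark, which made the Myoc-type count 4. In Cxcl14-type cells Anxa3 came short of the mark with TMM factors (log2 ratio -0.53) and without ribosomal and mitochondrial genes in the total (-0.58), Cd34 passed it without cells near the division (-0.60), and Dpt passed it with classes from clusters (-0.69).

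Thy1 was the gene with opposite directions. In Myoc-type cells it was 109 CPM in WT (2681 UMIs) and 31.7 CPM in TNF-Tg (244 UMIs), a log2 ratio of -1.79 (interval -1.98 to -1.60). In Cxcl14-type cells it was 30.8 CPM (253 UMIs) and 50.1 CPM (308 UMIs), a log2 ratio of 0.70 (0.46 to 0.95). Among the 11215 genes with at least 20 UMIs over WT and TNF-Tg in each type, 17 (0.152%) were likewise at least 1.5-fold lower in Myoc-type and higher in Cxcl14-type cells. The pattern was part of the reason Thy1 was chosen, and it has no replicate.

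The tdT libraries put those levels in proportion. Thy1 measured 52.7 CPM (tdT1) and 125 CPM (tdT2) in gated Myoc-type cells. The 3 libraries without the transgene thus spanned 2.37-fold, with TNF-Tg below all of them. In Cxcl14-type cells the same 3 libraries ran from 30.8 to 46.4 CPM, and the 50.1 CPM of TNF-Tg was just above, within the counting interval of tdT2. The TNF-Tg value was 1.63-fold that of WT there.

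The Thy1 UMIs did not come from a single cell. In TNF-Tg 113 of 559 Myoc-type cells held at least 1 UMI and the cell with most held 4.51% of them, and in Cxcl14-type cells 149 of 545 did and the top cell held 3.25%. The top 10 cells held 28.7% of the UMIs in Myoc-type and 21.8% in Cxcl14-type cells of TNF-Tg, against 7.09% and 26.5% in WT. In WT 718 Myoc-type and 141 Cxcl14-type cells held a Thy1 UMI, and the share of 10 cells depends on that number. Thinned to 3000 UMIs a cell, Thy1 was found in 21.4% of Myoc-type cells of WT and 7.43% of those of TNF-Tg. In Cxcl14-type cells it was found in 7.29% and 10.8%. The share in macrophages of WT, which should lack Thy1, was 0.169%. T cell transcripts in the gates were near 0. The 6-gene T cell panel summed to between 0 and 2.87 CPM in Myoc-type cells and between 0 and 1.22 CPM in Cxcl14-type cells, and 5 of its genes were at 0 in WT Cxcl14-type cells.

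Along the axis, Thy1 had its highest level in different places. In WT it was 15.3 CPM in stromal cells below -3 and 116 CPM between 1 and 3. In TNF-Tg it was 44.8 CPM below -3, 61.0 CPM between -3 and -1, 41.2 CPM between -1 and 1, 32.3 CPM between 1 and 3 and 21.9 CPM above 3. The log2 ratio of TNF-Tg over WT ran from 1.55 below -3 through -1.15 in the middle to -2.18 above 3, so the direction turned between the second and the third of 5 ranges. The tdT1 library had its highest Thy1 (95.3 CPM) between -1 and 1 and 27.9 CPM above 3, and tdT2 peaked at 149 CPM between 1 and 3.

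**Figure D3:**
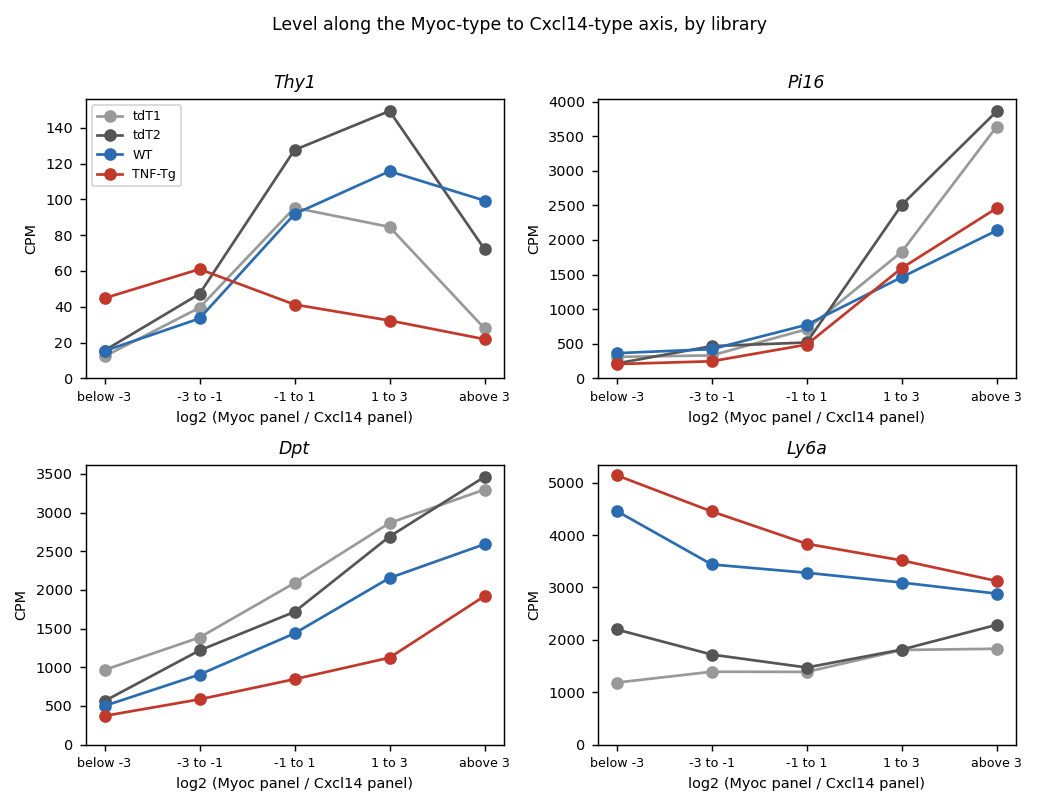
CPM of Thy1, Pi16, Dpt and Ly6a (linear axes from 0) in 5 ranges of the stromal axis, from Cxcl14-rich cells on the left to Myoc-rich cells on the right, with 1 line per library. The Thy1 lines of WT and TNF-Tg cross between -3 and 1, while Dpt is lower in TNF-Tg than in WT in all 5 ranges.

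The axis is built from genes that differ between the libraries too. In TNF-Tg, 9 of the 10 Myoc panel genes were below WT in Myoc-type cells (median log2 ratio -0.65, against -0.04 over all genes). So were 9 of the 10 Cxcl14 panel genes in Cxcl14-type cells (-0.76, against -0.20). The exceptions were Loxl1 (0.15) and Cxcl14 itself, which stood at 1154 CPM in WT and 2866 in TNF-Tg (1.31). A TNF-Tg cell and a WT cell at the same place on the axis thus need not be alike. With TNF-Tg weighted to the WT spread along the axis, Thy1 stayed at -1.91 in Myoc-type and 0.67 in Cxcl14-type cells. In clusters made without the 9 genes, the tdT1 cluster with the highest Thy1 (86.9 CPM, 248 cells) and the tdT2 cluster with the highest (132 CPM, 68 cells) had median axis values of -0.60 and -0.38. Taking classes from the clusters moved the tdT1 log2 ratio of Myoc-type over Cxcl14-type cells for Thy1 from 0.43 to -1.36.

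Dpt had the next widest difference in Myoc-type cells. TNF-Tg stood at 1278 CPM against 2278 in WT and 2697 and 3082 in tdT2 and tdT1, a log2 ratio to WT of -0.83 (-0.86 to -0.80). In Cxcl14-type cells it was 534 against 789 CPM, a log2 ratio of -0.56 (-0.63 to -0.50). TNF-Tg was below all 3 other libraries in both types, and below WT in all 5 ranges of the axis, with log2 ratios from -0.94 to -0.43.

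Pi16 separated the types in another way. Its level in Myoc-type cells was 1641 CPM in TNF-Tg and 1678 in WT, a log2 ratio of -0.03 (-0.06 to -0.0029). In Cxcl14-type cells TNF-Tg had 234 CPM and WT 445, a log2 ratio of -0.93 (-1.02 to -0.84), and TNF-Tg was the lowest of the 4 libraries. The direction in Myoc-type cells depends on how cells are weighed: it was 0.15 with TNF-Tg weighted to the WT axis, 0.20 in the cells above 3 and 0.07 when every cell counted equally. In WT and TNF-Tg 42.9% and 28.0% of Cxcl14-type cells held Pi16 at 3000 UMIs.

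Dpp4 and Anxa3 were lower in TNF-Tg in both types. Dpp4 was 343 CPM in WT and 229 in TNF-Tg in Myoc-type cells (log2 ratio -0.58, -0.66 to -0.51), and 28.8 and 10.9 CPM in Cxcl14-type cells (-1.40, -1.81 to -1.003, on 236 and 67 UMIs). Thinned to 3000 UMIs a cell, the latter became -0.80. For Dpp4, TNF-Tg was below all other libraries in both types, yet inside the counting interval of tdT2. That interval was 217 to 301 CPM in Myoc-type and 6.36 to 24.4 CPM in Cxcl14-type cells. In Cxcl14-type cells Dpp4 in WT, tdT1 and tdT2 spanned 2.17-fold. Anxa3 was 769 and 515 CPM in Myoc-type cells (-0.58, -0.63 to -0.53) and 144 and 91.8 CPM in Cxcl14-type cells (-0.65, -0.80 to -0.51). In Cxcl14-type cells the TNF-Tg value of Anxa3 lay within the range of the other libraries, since tdT1 and tdT2 stood at 74.7 and 62.3 CPM.

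Cd34 and Cd55 were lower in TNF-Tg in both types as well, short of 1.5-fold. Cd34 measured 1102 (WT) and 890 CPM (TNF-Tg) in Myoc-type cells (log2 ratio -0.31, -0.35 to -0.27) and 839 and 571 CPM in Cxcl14-type cells (-0.55, -0.61 to -0.50), below all other libraries in both types. Few endothelial transcripts were in the gate, with the endothelial panel summing to 5.13 CPM or less in every stromal sum. Cd55 had log2 ratios of -0.24 (-0.32 to -0.17) and -0.25 (-0.50 to -0.01), and the former came to 0.00042 with TNF-Tg weighted to the WT axis.

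Ly6a was the one gene higher in TNF-Tg in both types, by log2 0.21 (0.19 to 0.23) in Myoc-type and 0.25 (0.23 to 0.27) in Cxcl14-type cells, and above WT in all 5 ranges of the axis. Ly6c1, its neighbour on chromosome 15, was at -0.11 (-0.14 to -0.08) and -0.32 (-0.36 to -0.29). Ly6e, another family member, measured 271 CPM (WT) and 236 (TNF-Tg) in Myoc-type cells and 283 and 297 CPM in Cxcl14-type cells. Of the 10 other Ly6 genes listed, 2 passed the filter in Myoc-type and 3 in Cxcl14-type cells. Of these, 0 and 2 were at least 1.5-fold lower, where 16.0% and 27.8% of all genes were. The 2 in Cxcl14-type cells were Ly6k (52 UMIs in WT and 14 in TNF-Tg) and Ly6c2 (20 and 7), both on few UMIs.

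**Figure D4:**
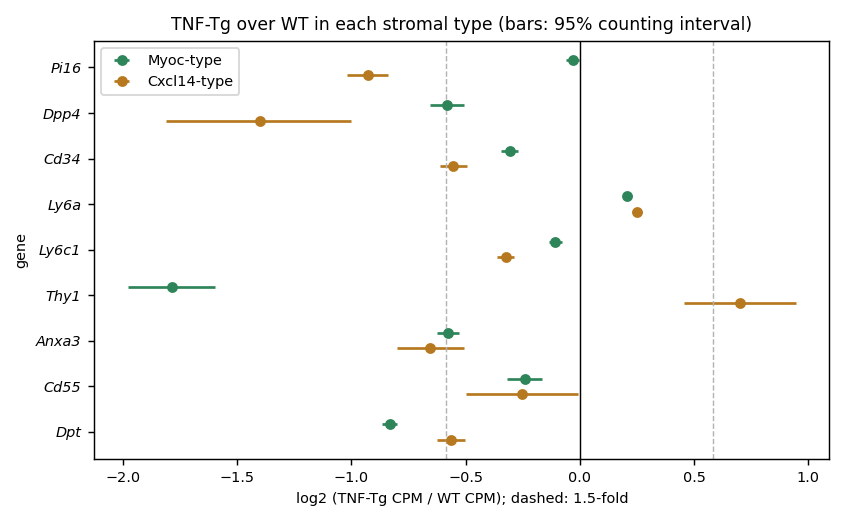
Log2 ratio of TNF-Tg over WT CPM for each gene in Myoc-type and Cxcl14-type cells; bars are 95% counting intervals and dashed lines mark 1.5-fold. Thy1 lies at -1.79 in Myoc-type and 0.70 in Cxcl14-type cells, and Ly6a lies above 0 in both.

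Transcripts of other cell types differed between the same gates. The macrophage panel summed to 325 CPM in Myoc-type cells of WT and 79.7 in TNF-Tg, and to 385 and 126 CPM in Cxcl14-type cells, with 0 of its 6 genes at 0 in either library. The neutrophil panel summed to 163 and 14.3 CPM, and to 238 and 92.6 CPM. Predicted doublets, kept in these values, were 42 of 1501 Myoc-type cells in WT and 4 of 559 in TNF-Tg. In Cxcl14-type cells they were 19 of 714 and 1 of 545. Their part in the panel sums was not tested. The level of Ly6a, Cd55 and Anxa3 in macrophages was below that of the stromal types except for Cd55 in Cxcl14-type cells and, in TNF-Tg, was close to it for Anxa3, and the part of macrophage RNA in those ratios was not tested. Globin genes were at 10.1 CPM (WT) and 564 CPM (TNF-Tg) in Myoc-type cells, of which 1 cell held 97.2%, and leaving that cell out made the count of genes 1.5-fold lower 3 in place of 2.

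The third question was whether the 9 genes were found in the same cells. At 3000 UMIs a cell, the Myoc-type cells held a mean of 6.45, 6.62, 6.89 and 6.29 of the 9 in tdT1, tdT2, WT and TNF-Tg, and the Cxcl14-type cells 3.99, 4.23, 4.46 and 4.11. At least 5 of the 9 were found in 90.5%, 88.8%, 96.8% (95.8 to 97.6) and 92.2% (89.7 to 94.3) of Myoc-type cells. In Cxcl14-type cells the shares were 36.9%, 38.9%, 45.5% (41.5 to 49.5) and 34.4% (30.1 to 38.8). In both types the TNF-Tg value was below WT, while the tdT shares were nearer to those of TNF-Tg than of WT. The intervals were wide in tdT2 (79.7 to 94.7 and 29.7 to 48.7). All of these intervals cover the counting of cells within 1 library, not the spread between mice or libraries. In macrophages 0% of cells reached 5 in any library, and the WT mean was 0.862.

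Cells with all 9 were rare. In the Myoc-type gate there were 15 of 566 (tdT1), 5 of 80 (tdT2), 82 of 1472 (WT) and 4 of 552 (TNF-Tg), and 0 of 176, 108, 631 and 483 in the Cxcl14-type cells. Thy1 was the gene found in fewest Myoc-type cells of every library.

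**Figure D5:**
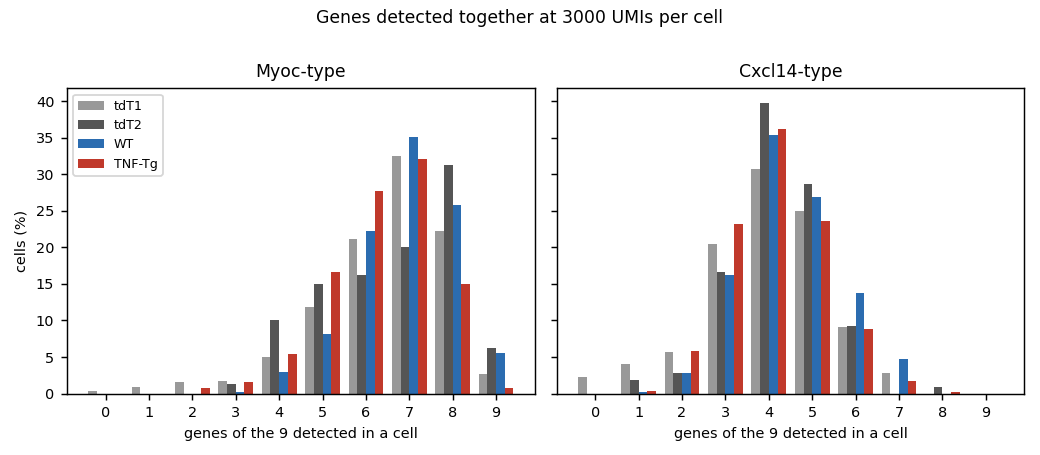
Share of cells (%, bars from 0) by how many of the 9 genes were detected in them after thinning to 3000 UMIs, for both stromal types and 4 libraries. The median Myoc-type cell held 6 or 7 of them and the median Cxcl14-type cell 4.

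Pi16 and Dpp4, a pair often used to name adventitial progenitors, were found together in 50.4%, 38.8%, 54.4% (51.8 to 57.0) and 43.8% (39.7 to 48.1) of Myoc-type cells of tdT1, tdT2, WT and TNF-Tg. The product of their separate shares gives 46.1%, 32.5%, 52.5% and 40.2%. In Cxcl14-type cells the pair was found in 2.27%, 0.926%, 2.85% and 1.66%, against 0.0565% of WT macrophages. Cd34 and Ly6a were both found in 84.3%, 91.3%, 93.5% and 88.9% of Myoc-type cells and in 67.6%, 82.4%, 84.5% and 79.1% of Cxcl14-type cells, a much smaller gap between the types.

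Of the 36 pairs of the 9 genes, 14 were found together in Myoc-type cells more often than the product of their separate shares in all 4 libraries, and 2 less often in all 4. Pi16 and Cd55 each took part in 5 of the 14, and Thy1 in none. Ly6a and Ly6c1 were both found in 82.0%, 88.8%, 97.5% and 89.3% of Myoc-type cells, where the product gives 77.6%, 87.8%, 97.4% and 89.0%. The 2 pairs found less often both held Thy1. Pi16 with Thy1 was found in 9.19%, 20%, 18.5% and 6.34%, where the product gives 10.2%, 24.6%, 18.7% and 6.42%, and Thy1 with Anxa3 in 8.83%, 20%, 16.6% and 4.71%, where it gives 8.98%, 21.1%, 17.6% and 5.45%. Every one of these 8 products lay inside the counting interval of the observed share, and so did 52 of the 56 products (14 pairs in 4 libraries) of the pairs found together more often. The exceptions were Pi16 with Dpp4 and Ly6a with Ly6c1 in tdT1, and Pi16 with Anxa3 in tdT1 and tdT2. The pairs share their cells, and cells still differ in their place on the axis, so no test is given.

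In Cxcl14-type cells 9 of the 36 pairs were above the product in all 4 libraries and 0 below it in all 4. Of the 36 products of those 9 pairs, 32 lay inside the counting interval, which has the same limit. The log2 odds ratio was above 0 in all 4 libraries for 7 pairs and below 0 for 1. Dpp4 and Anxa3 were found together in 1.70%, 0.926%, 2.54% and 1.66%, where the product gives 0.568%, 0.189%, 1.48% and 0.743%, on few cells. Thy1 and Cd55 were together in 3.98%, 3.70%, 1.43% and 1.24%, where it gives 1.26%, 1.67%, 0.924% and 1.07%. Pi16 and Thy1 were together in 3.33% of WT cells (product 3.13%) and in 1.24% of TNF-Tg cells, with an interval of 0.457 to 2.68 and a product of 3.01%.

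The genes named beside these 9 as adventitial companions (20 genes, a list made with results known) were mostly lower in TNF-Tg as well. In Myoc-type cells 9 of 20 were at least 1.5-fold lower and 0 higher, where 16.0% and 11.9% of all genes were, with a median log2 ratio of -0.52 against -0.04. In Cxcl14-type cells 9 of 19 past the filter were lower and 1 higher, where 27.8% and 11.6% of all genes were, with a median of -0.52 against -0.20. Wnt2, a secreted signal, measured 91.7 CPM (WT) and 25.4 (TNF-Tg) in Myoc-type cells (log2 ratio -1.85), and Bmp7, a bone morphogenetic protein, 21.8 and 7.14 (-1.61). Scara5, a ferritin receptor, was at 514 and 170 CPM in Cxcl14-type cells (-1.60), and Pcsk6, a proprotein convertase, at 10.97 and 1.47 (-2.90, on 90 and 9 UMIs).

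Parenchymal fibroblast genes were spread in both directions, with 2 of 15 lower and 5 higher in Myoc-type cells and 5 of 14 lower and 4 higher in Cxcl14-type cells. The shares over all genes were 16.0% lower and 11.9% higher in Myoc-type and 27.8% lower and 11.6% higher in Cxcl14-type cells, and the lower counts lie near them. Icam1, an adhesion molecule, was at 13.1 CPM (WT) and 34.4 CPM (TNF-Tg) in Myoc-type cells (1.39). Penk, the enkephalin precursor, was at 583 and 216 CPM in Cxcl14-type cells (-1.43). Fabp4 and Pparg, both adipocyte genes, had 1.27 (31 and 56 UMIs) and -1.27 (29 and 9 UMIs) there.

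Complement regulators, the wider company of Cd55, were 2 of 7 lower and 2 higher in Myoc-type and 3 of 5 lower and 1 higher in Cxcl14-type cells. Clu (clusterin) stood at 76.8 and 24.4 CPM in Cxcl14-type cells (-1.65), while Vtn (vitronectin) stood at 13.4 and 30.1 (1.17). Among genes for binding partners of the 9 proteins, 3 of 8 were lower and 1 higher in Myoc-type cells and 4 of 7 lower and 0 higher in Cxcl14-type cells. Both lists are short beside all genes, of which 16.0% were lower and 11.9% higher in Myoc-type and 27.8% lower and 11.6% higher in Cxcl14-type cells. Sdc4 (syndecan 4) was at 78.5 and 183 CPM in Myoc-type cells (1.22) and Itgb3 (integrin beta 3) at 28.7 and 12.05 CPM in Cxcl14-type cells (-1.25). Itgam, an integrin gene of leukocytes, was at -1.93 in Cxcl14-type cells (51 and 10 UMIs), beside the macrophage and neutrophil transcripts already given.

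Across 24 sums of at least 30 cells (type by library), the genes whose log2(CPM + 1) was most like that of Thy1 were Fbxo17 (Pearson r 0.90), 1500009L16Rik, Eya2, Sytl2 and Plekhf1. For Pi16 they were Igfbp6 (0.92), C3, Tnfaip6, Il1r2 and Anxa1, and for Dpt Mfap5 (0.98), Ogn, Pcolce2, Gpx3 and Lama2. Sparc had an r of 0.995 with Ly6c1 and Plpp3 of 0.976 with Cd34. These sums share libraries and depth, so the r values are a description.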

How the data were processed

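Vessel cells were profiled in 4 droplet libraries, of which tdT1 and tdT2 are replicates and WT and TNF-Tg stand alone. The authors deposited raw UMI counts, made with Cell Ranger for called cells and not normalized (mm10 and Cell Ranger 3.1.0 in the processing notes, and 3.1.0 for tdT1 and 6.0.1 for the others in the headers). The libraries held 1504, 454, 5488 and 3391 cells with 14256192, 2357031, 68773605 and 37557627 UMIs. All called cells entered, and the gate thresholds were set after the panel sums had been seen. The members, lists and panels were chosen with earlier results of these data known. The named genes were all 9, up to 4 per list with the widest TNF-Tg difference, the 5 most alike for examples, and the check panels, except that some list genes are not reported here. UMIs were summed per type and library in Python 3.11.15 with Scanpy 1.11.5, given as CPM with exact Poisson intervals, exact binomial intervals for ratios, and Clopper-Pearson intervals for shares, all 95% and for counting error only. The interval for the difference between the types in the Thy1 log2 ratio was a normal approximation from the UMI counts, not an exact interval. Doublets were called with Scrublet in Scanpy and kept in the main values. Co-detection was read after thinning every cell to 3000 UMIs, leaving out shallower cells. TMM factors came from edgeR 4.0.16, used for scaling only. The calculations were checked on simulated data.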

Additional observations from a re-analysis of the deposited data

Results flagged for a closer look

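Thy1 had opposite directions in the stromal types. TNF-Tg over WT stood at a log2 ratio of -1.79 in Myoc-type cells and 0.70 in Cxcl14-type cells, a difference (Myoc-type minus Cxcl14-type) of -2.49 with a counting interval of -2.79 to -2.18. The difference was not tested, because each condition is 1 library, and the pattern was known when Thy1 was chosen.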

How the results depend on the processing

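The log2 ratios of TNF-Tg over WT kept their sign for 16 of 18 gene and type pairs over up to 10 alternatives, of which the weighting to the WT axis and the removal of the cell rich in globin were chosen after seeing the data. The exceptions in Myoc-type cells were Pi16, between -0.04 and 0.15, and Cd55, between -0.25 and 0.00042. Thy1 ran from -1.91 to -1.76 in Myoc-type and from 0.67 to 1.20 in Cxcl14-type cells. With 2-fold in place of 1.5-fold, 1 gene was lower in Myoc-type cells (2 at 1.5-fold), 1 lower in Cxcl14-type cells (3 at 1.5-fold) and 0 higher there (1 at 1.5-fold), since the mark is higher. The share of all genes past 2-fold is not given here, so nothing is read from the 2-fold counts. At 1.5-fold the lower count in Cxcl14-type cells was between 2 and 4 over the other alternatives. Without predicted doublets 4 were lower in Myoc-type cells, because Dpp4 and Anxa3 passed 1.5-fold. TMM factors moved the median log2 ratio of all genes in Cxcl14-type cells from -0.20 to -0.07. The Myoc-type over Cxcl14-type log2 ratio kept its sign in 33 of 36 cases over 8 alternatives, and the cases that did not were Thy1 in tdT1, Ly6a in tdT2 and Ly6c1 in TNF-Tg. The count of 5 genes higher in Myoc-type cells in all 4 libraries was between 5 and 6 when a library was left out. Over the tdT libraries, leaving out either one moved the mean Thy1 ratio between types to 0.43 or 1.43. With 0.5 added to each count and log2 odds ratios in place of products, 18 pairs in Myoc-type and 7 in Cxcl14-type cells were above in all libraries (14 and 9 by products). The products were preferred after these values were seen, because the added 0.5 turned pairs with a gene found in nearly every cell. It also turned a pair with a gene found in few cells, Dpp4 with Cd55 in Cxcl14-type cells of tdT1 and tdT2. At 1500 UMIs, 84.5% of WT and 70.6% of TNF-Tg Myoc-type cells held 5 or more genes. No paired analysis was possible because the WT and TNF-Tg groups hold 1 library each. Detection is limited by depth: 186 of 752 Myoc-type cells of tdT1 lay below 3000 UMIs.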
